A study of Homo sapiens with 39 samples.

Results

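The 7 genes TRIM10, TRIM15, TRIM26, TRIM31, TRIM38, TRIM39 and TRIM40 were followed through 39 RNA-seq libraries made from HCT116, which is a cell line of human colorectal cancer. TRIM10 was selected because an earlier analysis of the same data had called it higher in nearly every line. Its values and calls are therefore given as a description, with no p-value. The other 6 were chosen by name and place: all are tripartite motif (TRIM) genes of the short arm of chromosome 6. Earlier results were known when they were listed, so their p-values, from a fit of all genes, are no independent support. They are 7 of 45435 genes listed, and 5 of the 7 reached the mean of 1 TPM (transcript abundance scaled to length and to a fixed sum per library) required for a test, as did 15003 genes in all. TRIM31 and TRIM40 stayed under it and are given by their values.

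The libraries formed 13 groups of 3. The first was the parental Flp-In T-REx HCT116 host, which has no HNF4A construct. The remaining 12 were stable lines, 1 per group, carrying 1 isoform of HNF4A (hepatocyte nuclear factor 4 alpha, a nuclear receptor that binds DNA and drives liver and gut genes), fused at its C-terminus to GFP and switched on by doxycycline. All groups, the parental cells included, received 2.5 µg/ml doxycycline over 48 h, without selection antibiotics from its addition on. Earlier selection was with blasticidin plus zeocin for the parental cells, and with blasticidin plus hygromycin B for the lines. No group made GFP alone and each isoform is 1 line, so an isoform, its GFP tag, the earlier antibiotics and the derivation of that line cannot be told apart. Nothing in the labels says that the 3 libraries of a group came from separate cultures, so the tests measure the spread between these libraries, which may be technical.

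By the standard nomenclature, which the labels do not give, isoforms 1 to 6 come from the first promoter of HNF4A and isoforms 7 to 12 from the second. Isoforms 4, 5 and 6 include exon 1B, and otherwise correspond to 1, 2 and 3. Isoforms 3, 6, 9 and 12 have a shortened C-terminus, and isoforms 2, 5, 8 and 11 a short insertion near it.

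TRIM proteins carry a RING finger, B-boxes and a coiled coil, and most are E3 ligases that attach ubiquitin or related tags to other proteins. The cluster in the class I region of the major histocompatibility complex (MHC) holds several members tied to innate immune signalling. TRIM10 was first described in developing red blood cells and also binds the type I interferon receptor. TRIM15 is found at focal adhesions with paxillin. TRIM31 acts on MAVS and NLRP3 and is known from gut epithelium, and TRIM40 is a gut gene that restrains NF-kB signalling. TRIM26 acts on IRF3, TRIM39 on MOAP1 and the anaphase-promoting complex, and TRIM38 on TAB proteins and TRIF in Toll-like receptor signalling.

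All 7 are protein-coding in GENCODE 29 (GRCh38). On chromosome 6 the order is TRIM31 (30102897 to 30113106, minus strand), TRIM40 (30136108 to 30148735, plus), TRIM10 (30151945 to 30160934, minus), TRIM15 (30163206 to 30172696, plus), TRIM26 (30184455 to 30213427, minus) and TRIM39 (30326479 to 30343729, plus). TRIM38 (25962802 to 25991226, plus) lies 4.2 Mb away from TRIM10, outside the cluster. TRIM10 and TRIM15 start 2272 bases apart and point away from each other. In RefSeq the annotated spans of these 2 genes share 464 bases on opposite strands. The libraries kept the strand, but whether the counting used it is not given in the sources used here, so reads from overlapping genes may not be fully separated.

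The promoters of the 4 genes around which the results turn are printed below from RefSeq (GRCh38.p14), 250 bases before to 50 after the start site, 5′ to 3′ on the strand of the gene. The TRIM10 window belongs to a start at 30161211, not to the outermost RefSeq start of the gene at 30164009. Capitals mark matches to any of 4 nuclear receptor motifs of the kind HNF4A binds, CAAAGTCCA, CAAAGTTCA, CAAAGGCCA and CAAAGGTCA, searched on both strands and chosen after the promoters had been seen.
TRIM10 (chr6:30161162-30161461, minus strand): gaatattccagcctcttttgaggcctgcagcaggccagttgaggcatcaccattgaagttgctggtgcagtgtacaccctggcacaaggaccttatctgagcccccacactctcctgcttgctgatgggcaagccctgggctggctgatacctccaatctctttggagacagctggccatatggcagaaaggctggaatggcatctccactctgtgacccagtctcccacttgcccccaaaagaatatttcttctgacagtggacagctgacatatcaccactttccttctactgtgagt
TRIM15 (chr6:30163296-30163595, plus strand): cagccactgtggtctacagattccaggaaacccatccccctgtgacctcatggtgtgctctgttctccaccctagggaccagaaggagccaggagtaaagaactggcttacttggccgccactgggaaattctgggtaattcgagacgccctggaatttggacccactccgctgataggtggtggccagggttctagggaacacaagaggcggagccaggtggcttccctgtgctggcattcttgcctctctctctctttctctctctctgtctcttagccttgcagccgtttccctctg
TRIM40 (chr6:30135890-30136189, plus strand): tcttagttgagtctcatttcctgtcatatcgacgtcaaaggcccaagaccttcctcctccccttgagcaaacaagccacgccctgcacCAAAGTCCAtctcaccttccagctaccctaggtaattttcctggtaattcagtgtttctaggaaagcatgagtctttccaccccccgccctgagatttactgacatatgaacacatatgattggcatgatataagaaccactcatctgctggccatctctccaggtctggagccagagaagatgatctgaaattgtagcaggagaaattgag
TRIM31 (chr6:30113041-30113340, minus strand): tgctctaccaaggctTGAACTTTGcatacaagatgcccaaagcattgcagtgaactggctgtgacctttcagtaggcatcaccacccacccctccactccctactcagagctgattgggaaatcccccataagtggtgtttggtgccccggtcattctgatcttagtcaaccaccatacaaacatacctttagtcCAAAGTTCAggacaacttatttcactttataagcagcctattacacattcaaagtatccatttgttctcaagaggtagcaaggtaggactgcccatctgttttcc

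TRIM40 has CAAAGTCCA beginning 162 bases before its start at 30136140, and its other window, for a start at 30136733, has 0 matches. TRIM31 has CAAAGTTCA beginning 55 bases before its start, and the same motif on the opposite strand at 235 bases before. Of the 10 windows held for the 7 genes, the 2 printed for TRIM40 and TRIM31 had a match. Of all 35116 promoter windows of that length, 542 (1.54%) had one. The windows of TRIM10 and TRIM15 hold none of these letters in this order, which says nothing of binding elsewhere.

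The libraries had between 27884 and 30550 genes above 0 TPM, and TPM does not show how deeply each was sequenced, so that depth is unknown. HNF4A mRNA stood at 31.5 TPM ± 0.589 (SD, n = 3) in parental cells and at 407 TPM or more in every library of the 12 lines. Replicate 1 of isoform 3 stood apart, where HNF4A was at 407 TPM while its sister libraries held 833 and 772 TPM. All 6 epithelial markers were present, at a summed 2600 to 5820 TPM. Their sum was 5310 to 5820 TPM in isoform 1 against 3180 to 3310 TPM in parental cells. It was also above every parental library in isoforms 2, 3, 7, 8 and 11, and below all of them in isoforms 4, 5, 6 and 12, and its part in the results was not tested. Of 6 blood markers, 1 reached 1 TPM in any library, and their sum stayed between 1.07 and 2.3 TPM. The 3 stromal markers summed to 9.41 to 20.1 TPM.

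TRIM10 was low in parental cells and higher in every library of every line. Parental libraries held 1.4, 1.46 and 1.52 TPM. Isoform 1 held 15.0, 15.8 and 16.6 TPM, and isoform 2 held 12.3, 13.8 and 13.4 TPM. These 2 lines had the highest means of the gene, and their libraries did not overlap those of each other or of the parental cells. Isoform 3 had 6.55, 12.2 and 12.9 TPM, with the lowest value in the library that was also low in HNF4A. Its highest library lay above the lowest of isoform 2, so these 2 lines overlapped.

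The 6 lines of the second promoter formed a narrow middle band for TRIM10. Isoform 7 had 9.24, 9.54 and 9.71 TPM. Isoform 8, the lowest of the 6, had 8.11, 7.18 and 8.59 TPM. Isoforms 9 to 12 had means of 9.48, 8.82, 8.96 and 8.3 TPM, and neighbours in that order overlapped from isoform 3 down to isoform 8. The exon 1B lines came next: isoform 4 had 5.4, 4.79 and 5.26 TPM, isoform 5 had 4.3, 4.36 and 3.72 TPM, and isoform 6 had 3.5, 3.79 and 3.82 TPM. Isoform 4 overlapped neither isoform 8 above it nor isoform 5 below it, isoforms 5 and 6 overlapped, and isoform 6 stayed above all parental libraries.

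On the log2(TPM + 1) scale, which understates changes of genes with low TPM, TRIM10 was 2.77 ± 0.12 (SE) above parental cells in isoform 1 and 0.94 ± 0.12 above them in isoform 6. The ratio of mean TPM was 10.8 in the first and 2.54 in the second. A line was called for a gene where the limma adjusted p was under 0.05 and the log2 difference at least 1 in size. By this rule TRIM10 stands higher in 11 of 12 lines, the count that led to its selection. Just inside the rule was isoform 5, at 1.06, and just outside it isoform 6, at 0.94. Without replicate 1 of isoform 3, the difference of that line was 2.46 in place of 2.18. The same rule called 4.52%, 3.73%, 0.807%, 0.54%, 0.293% and 0.247% of all genes tested in the lines of isoforms 1 to 6. It called 2.08%, 1.41%, 0.827%, 1.44%, 1.7% and 0.573% in isoforms 7 to 12, in that order.

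**Figure D1:**
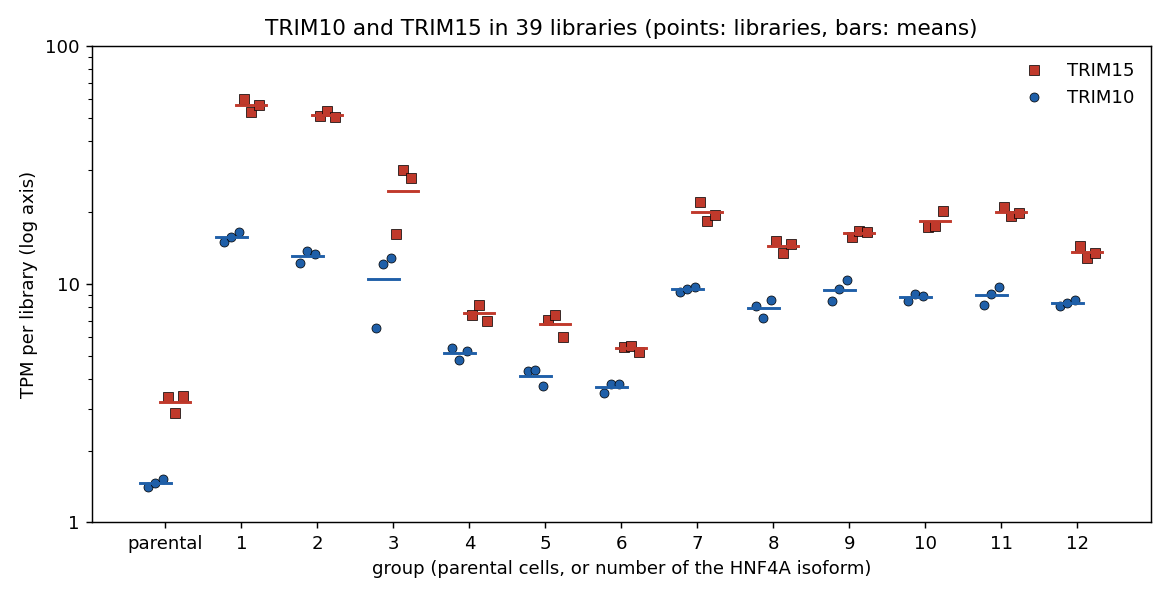
TPM of TRIM10 (blue circles) and TRIM15 (red squares) in each of the 39 libraries, on a log axis, with a bar at the mean of each group of 3. Every library of every line lies above the parental libraries for both genes. Isoforms 1 and 2 have the highest means, and isoforms 4, 5 and 6 are lowest among the lines. For TRIM10, libraries of isoforms 2 and 3 overlap.

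TRIM15, the gene that starts beside TRIM10 on the other strand, rose in 10 of 12 lines and spanned a wider range. Parental libraries held 3.36, 2.88 and 3.38 TPM. Isoform 1 held 60.0, 52.8 and 56.4 TPM, and isoform 2 held 50.8, 53.2 and 50.3 TPM. Libraries of these 2 lines overlapped each other and lay above all others. The log2 differences from parental cells were 3.77 ± 0.12 (SE; limma adjusted p = 5.93e-21) in isoform 1 and 3.64 ± 0.12 (limma adjusted p = 1.51e-20) in isoform 2.

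Isoform 3 had 16.2, 30.0 and 27.8 TPM of TRIM15, again lowest in replicate 1. The second-promoter lines ran from a mean of 13.6 TPM ± 0.796 (SD, n = 3) in isoform 12 to 20.0 TPM ± 1.86 (SD, n = 3) in isoform 7, and all 6 were called. Isoform 4 had 7.45, 8.19 and 7.01 TPM, a log2 difference of 1.02 ± 0.12 (SE; limma adjusted p = 3.26e-07). That call is narrow: the difference was 0.965 without parental replicate 2 and 0.97 without the second library of isoform 4. Isoform 5 had 7.05, 7.43 and 5.98 TPM, and isoform 6 had 5.43, 5.52 and 5.19 TPM. Both lay above all parental libraries but short of the minimum difference, at 0.89 (limma adjusted p = 5.24e-06) and 0.6 (limma adjusted p = 0.0013).

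By the adjusted p alone TRIM15 was higher in 12 of 12 lines. That looser rule is met by many genes: 58.5%, 55.3%, 26.0%, 16.3%, 14.8% and 10.1% in isoforms 1 to 6, in that order. In isoforms 7 to 12 it is met by 39.6%, 34.4%, 22.7%, 37.3%, 38.5% and 14.6%, in that order. All 12 comparisons share the 3 parental libraries.

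Lines were also compared with each other, which uses no parental library. TRIM15 was lower in isoform 4 than in isoform 1: the log2 difference was -2.75 ± 0.12 (SE; limma adjusted p = 8.57e-18), in a comparison where 4.49% of genes were called. Isoform 5 against isoform 2 gave the same -2.75 ± 0.12 (limma adjusted p = 1e-17), with 4.03% of genes called. Isoform 6 against isoform 3 gave -1.96 ± 0.12 (limma adjusted p = 2.72e-13), with 0.7% called, and -2.23 without replicate 1 of isoform 3. So in each pair that differs by exon 1B, the line with it had less TRIM15. Mean HNF4A mRNA also differed, at 856 TPM in isoform 4 against 782 TPM in isoform 1. It was 852 against 614 TPM in isoforms 5 and 2, and 1070 against 671 TPM in isoforms 6 and 3. The part of HNF4A level in these differences was not tested.

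Pairs that differ by the shortened C-terminus were compared next. For TRIM15, isoform 3 minus isoform 1 was -1.21 ± 0.12 (SE; limma adjusted p = 2.97e-09), with 1.45% of genes called, and -0.94 without replicate 1 of isoform 3, which ends the call. Isoform 6 minus isoform 4 was -0.42, isoform 9 minus isoform 7 was -0.28 and isoform 12 minus isoform 10 was -0.41, each ± 0.12 (SE), with limma adjusted p = 0.0208, 0.126 and 0.0181, and none of the 3 was called. In those 3 comparisons 0.493%, 0.42% and 0.533% of genes were called.

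TPM is scaled to transcript length, so the levels of TRIM15 and TRIM10 can be set against each other within a library. The ratio of TRIM15 to TRIM10 was 1.98 to 2.41 in parental libraries. It was 3.34 to 4.01 in isoform 1 and 3.74 to 4.13 in isoform 2, above every parental library. It was 1.33 to 1.71 in isoform 4, 1.61 to 1.71 in isoform 5 and 1.36 to 1.55 in isoform 6, below every parental library. Isoforms 8, 9 and 12 were also wholly below it, at 1.72 to 1.89, 1.59 to 1.86 and 1.55 to 1.79. The 2 genes thus moved in the same direction but by different amounts. Over the 13 group means the correlation of their log2(TPM + 1) values was 0.95, a description, as TRIM10 was selected on its levels.

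TRIM40 and TRIM31, on the other side of TRIM10, were low in parental cells and had their highest means in isoform 1. TRIM40 was listed at 0 in all 3 parental libraries. It had 1.19, 1.38 and 1.37 TPM in isoform 1, 1.01, 0.785 and 1.28 TPM in isoform 2, and 0.235, 0.394 and 0.435 TPM in isoform 3. In isoforms 4, 5 and 6 the highest library had 0.0412 TPM, and in isoforms 7 to 12 the highest had 0.173 TPM. The 9 libraries of isoforms 1, 2 and 3 thus lay above all other libraries. No fold is given against a group listed at 0.

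TRIM31 had 0.253, 0.33 and 0.0989 TPM in parental libraries and 1.72, 1.35 and 1.67 TPM in isoform 1. Isoform 8 came next, with 0.499, 0.908 and 1.18 TPM. Isoforms 2, 3, 7, 9, 10 and 11 had means between 0.418 and 0.732 TPM, and their libraries too lay above all parental ones. Isoforms 4, 5, 6 and 12 overlapped the parental libraries, with means of 0.129, 0.17, 0.252 and 0.252 TPM.

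All libraries of a line lay above all parental ones in 8 lines for TRIM31 and in 8 for TRIM40, at levels near or under 1 TPM. For TRIM40, listed at 0 in parental libraries, any value above 0 in all 3 libraries of a line counts. Such a separation is common among the genes tested, which exclude these 2: 22.1%, 23.5%, 15.2%, 13.2%, 22.3% and 16.7% in isoforms 1 to 6. In isoforms 7 to 12 it was 17.2%, 23.5%, 15.4%, 23.5%, 19.4% and 15.7%. With no filter on low values, the limma rule called TRIM40 in isoforms 1 and 2 and TRIM31 in isoform 1, where it called 1.91% of genes in isoform 1 and 1.56% in isoform 2. In the authors' deposited table, adjusted p under 0.05 and a log2 fold change of at least 1 were met by TRIM40 in 2 lines and by TRIM31 in 1. There 10 and 5 lines had no adjusted p for these genes. By that adjusted p alone, TRIM31 was higher in 7 lines and TRIM40 in 2. The deposited log2 fold change of TRIM31 in isoform 8 was 0.62, while its ratio of mean TPM was 3.8. A minimum of 1 is thus not the same rule in the 2 sources, and the share of all genes meeting the deposited rules was not counted.

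TRIM31 overlaps TRIM31-AS1, a gene on the opposite strand, over 7867 bases, so their reads may not be fully separated. TRIM31-AS1, named after its values were seen, was at 0.843 TPM ± 0.318 (SD, n = 3) in parental cells and 5.92 TPM ± 0.635 (SD, n = 3) with isoform 1. It was called higher in 6 lines, isoforms 1, 2, 7, 8, 9 and 11. Its mean of 2.48 TPM over the 39 libraries passed the filter only through lines where it was high, so this count is no support. Without replicate 1 of isoform 9 the difference of that line was 0.982, which ends its call, and without parental replicate 3 isoform 10 was called as well, at 1.002. In isoform 4 it was at 0.38 TPM ± 0.171 (SD, n = 3), a log2 difference of -0.41 ± 0.22 (SE; limma adjusted p = 0.218).

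TRIM38, outside the cluster, fell in 3 lines, isoforms 1, 7 and 9, and rose in 1, isoform 4. Parental libraries held 1.91, 1.97 and 1.45 TPM. Isoform 1 held 0.298, 0.378 and 0.319 TPM, isoform 7 held 0.3, 0.298 and 0.29 TPM, and isoform 9 held 0.254, 0.221 and 0.259 TPM. In these 3 lines TRIM38 fell, with log2 differences of -1.05, -1.09 and -1.15, each ± 0.09 (SE), with limma adjusted p = 1.55e-11, 2.22e-11 and 3.17e-11. Their mean TPM was 0.187, 0.167 and 0.138 of the parental mean.

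In isoform 4 TRIM38 had 5.01, 4.83 and 4.26 TPM, above every parental library. The log2 difference was 1.04 ± 0.09 (SE; limma adjusted p = 4.42e-10), and it was 0.955 without parental replicate 3, which ends the call. Isoform 6 had 2.81, 2.87 and 3.32 TPM, a difference of 0.53 (limma adjusted p = 0.000132) that is short of the minimum. Isoform 5 had 2.36, 1.89 and 2.16 TPM, overlapping the parental libraries, with a difference of 0.18 (limma adjusted p = 0.19). The exon 1B lines were thus the 3 with the highest mean TRIM38.

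The number of lines with lower TRIM38 depends on the scale, because its levels are near the pseudocount of 1 TPM. It was 3 by the rule above, 9 by the adjusted p alone and 7 with a pseudocount of 0.1 TPM. The adjusted p alone was met, in either direction, by 10.1% (isoform 6) to 58.5% (isoform 1) of all genes tested. In the authors' deposited table, 7 lines had an adjusted p under 0.05 and a log2 fold change of -1 or below. That minimum is not the same rule as the limma one. Shares of all genes with the smaller pseudocount or by the deposited values are not given. Just outside the limma rule was isoform 8, with 0.348, 0.466 and 0.352 TPM and a log2 difference of -0.995. Isoform 12 had 0.996, 1.07 and 1.49 TPM and overlapped the parental cells.

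TRIM38 differed between lines as well. It was higher in isoform 4 than in isoform 1 by 2.1 ± 0.09 (SE; limma adjusted p = 2.63e-18) and in isoform 5 than in isoform 2 by 1.07 ± 0.09 (limma adjusted p = 1.52e-11). The second was 0.998 with median-of-ratios scaling, which ends the call. Isoform 6 minus isoform 3 was 0.82 ± 0.09 (limma adjusted p = 2.64e-08), short of the minimum. Over the 13 group means its log2(TPM + 1) values had a correlation of -0.68 with TRIM10 and -0.71 with TRIM15. These points share the libraries and the scaling to a fixed sum, and are a description.

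**Figure D2:**
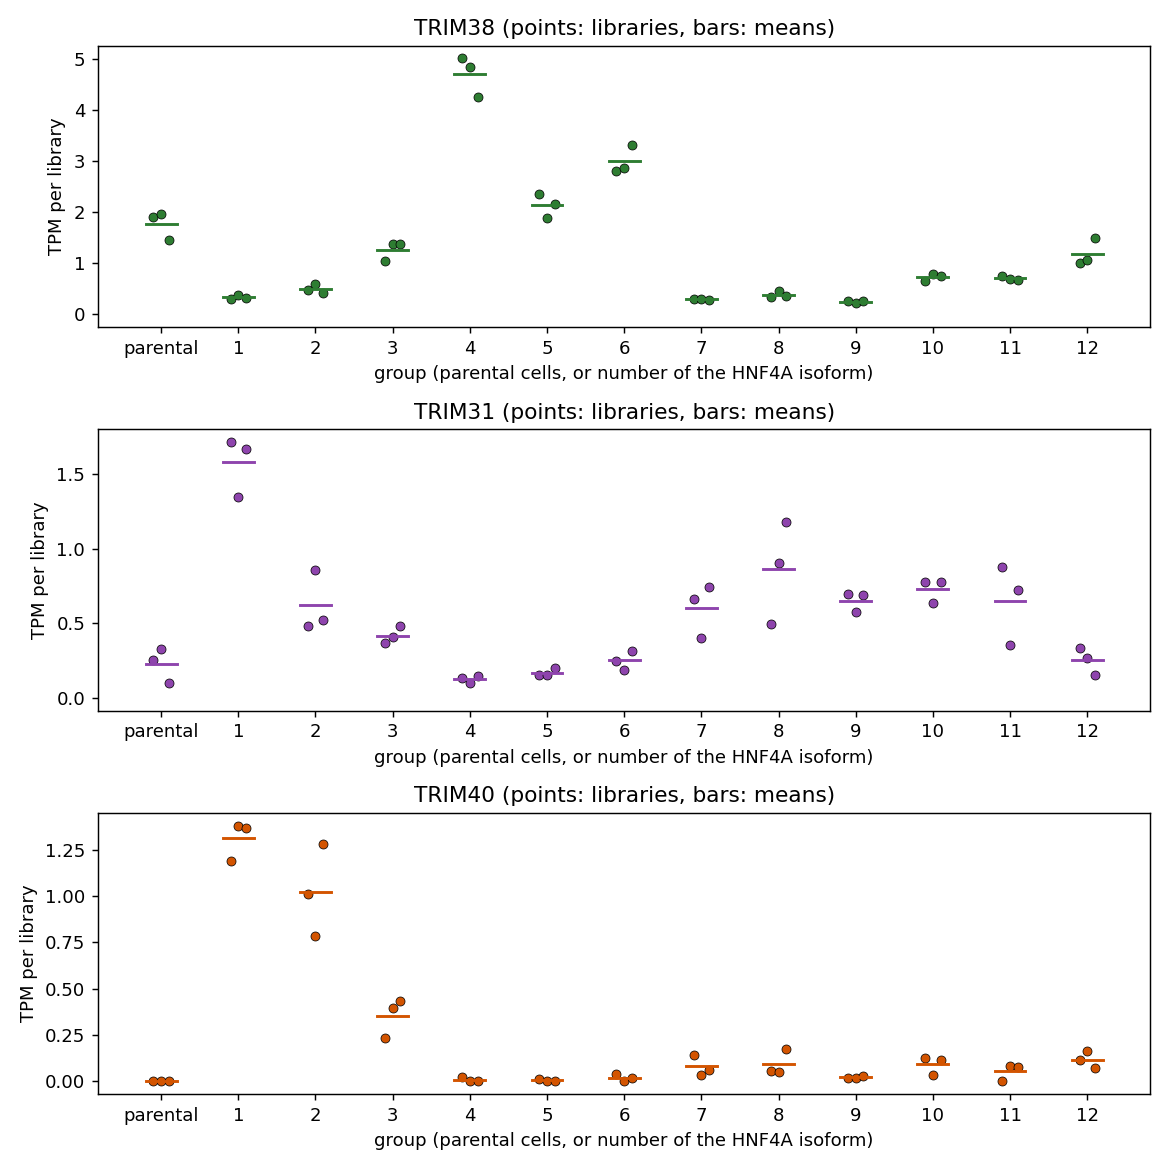
TPM of TRIM38, TRIM31 and TRIM40 in each of the 39 libraries, 1 panel per gene with its own linear axis, and a bar at the mean of each group of 3. TRIM38 is highest in isoform 4 and lowest in isoforms 1, 7 and 9, TRIM31 is highest in isoform 1, and every TRIM40 value of isoforms 1, 2 and 3 lies above those of all other groups.

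TRIM26 and TRIM39, which flank the pair on the side of TRIM15, were steady. TRIM26 lay between 39.3 and 44.4 TPM in all 39 libraries, with a parental mean of 40.5 TPM ± 0.419 (SD, n = 3). Its log2 differences were between 0.01 and 0.09, each ± 0.04 (SE), and limma called it in 0 lines. An unadjusted p under 0.05 was met in 1 line, and in the authors' deposited table an adjusted p under 0.05 was met in 3 lines, with log2 fold changes of at most 0.21. TRIM26 was the most abundant of the 7 in parental cells.

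TRIM39 lay between 8.08 and 10.5 TPM, with a parental mean of 9.78 TPM ± 0.444 (SD, n = 3). Limma called it in 0 lines. In isoform 2 its 8.75, 8.92 and 8.08 TPM were below all parental libraries, a log2 difference of -0.17 ± 0.06 (SE; limma adjusted p = 0.0215), the only line with an unadjusted p under 0.05. In that line 55.3% of all genes tested had a limma adjusted p under 0.05. The share of genes lying below all parental libraries was not counted. By the authors' deposited table, TRIM39 in 0 lines had an adjusted p under 0.05. The gene shares exons with the TRIM39-RPP21 readthrough gene, so how the quantification divided reads between them can touch its level.

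**Figure D3:**
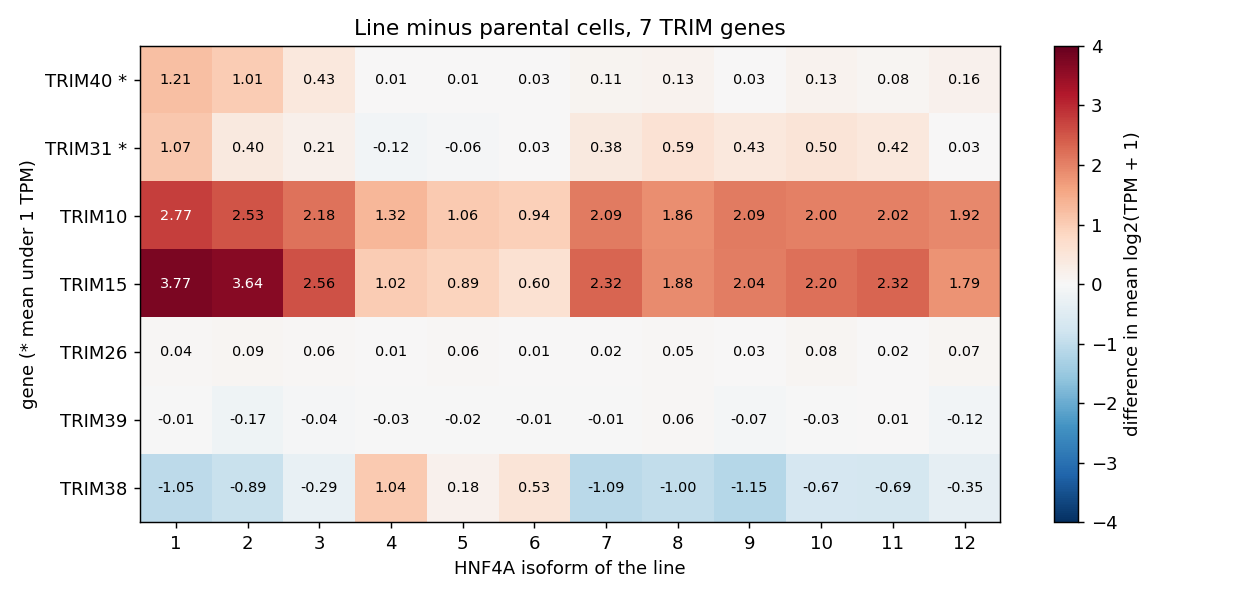
Difference in mean log2(TPM + 1) between each of the 12 lines and the parental cells for the 7 genes, from blue (lower) to red (higher), with the value in each cell; an asterisk marks the 2 genes with a mean under 1 TPM. TRIM10 and TRIM15 are positive in all 12 lines, TRIM26 and TRIM39 stay between -0.17 and 0.09, and TRIM38 is negative in 9 lines and positive in isoforms 4, 5 and 6.

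Other genes around TRIM10 were counted next. Within 500 kb on either side, 25 genes were tested, of which 21 were not TRIM genes followed here. Of those 21, TRIM31-AS1 and HLA-F (9.52%) were called in at least 1 line, against 6.57% of all genes tested. TRIM31-AS1, under 1 TPM on average in parental cells, was tested only through lines where it was high. HLA-F, a non-classical MHC class I gene, was at 5.78 TPM ± 0.53 (SD, n = 3) in parental cells and 18.3 TPM ± 1.5 (SD, n = 3) with isoform 1. That is a log2 difference of 1.51 ± 0.13 (SE; limma adjusted p = 4.59e-11), and HLA-F was called higher in 3 lines, isoforms 1, 2 and 10.

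A list of 33 MHC genes around the cluster had 25 members tested. In isoform 1 it had 1 called higher and 1 called lower, in isoform 2 it had 1 called higher and 0 lower, and in isoform 10 it had 1 of each. All genes were called at 4.52%, 3.73% and 1.44% in these lines. Its median log2 difference was -0.17 in isoform 1 and -0.15 in isoform 2, against -0.11 and -0.09 over all tested genes. In the other 9 lines it had 0 called in either direction. HLA-F was the gene of this list called in at least 3 lines.

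**Figure D4:**
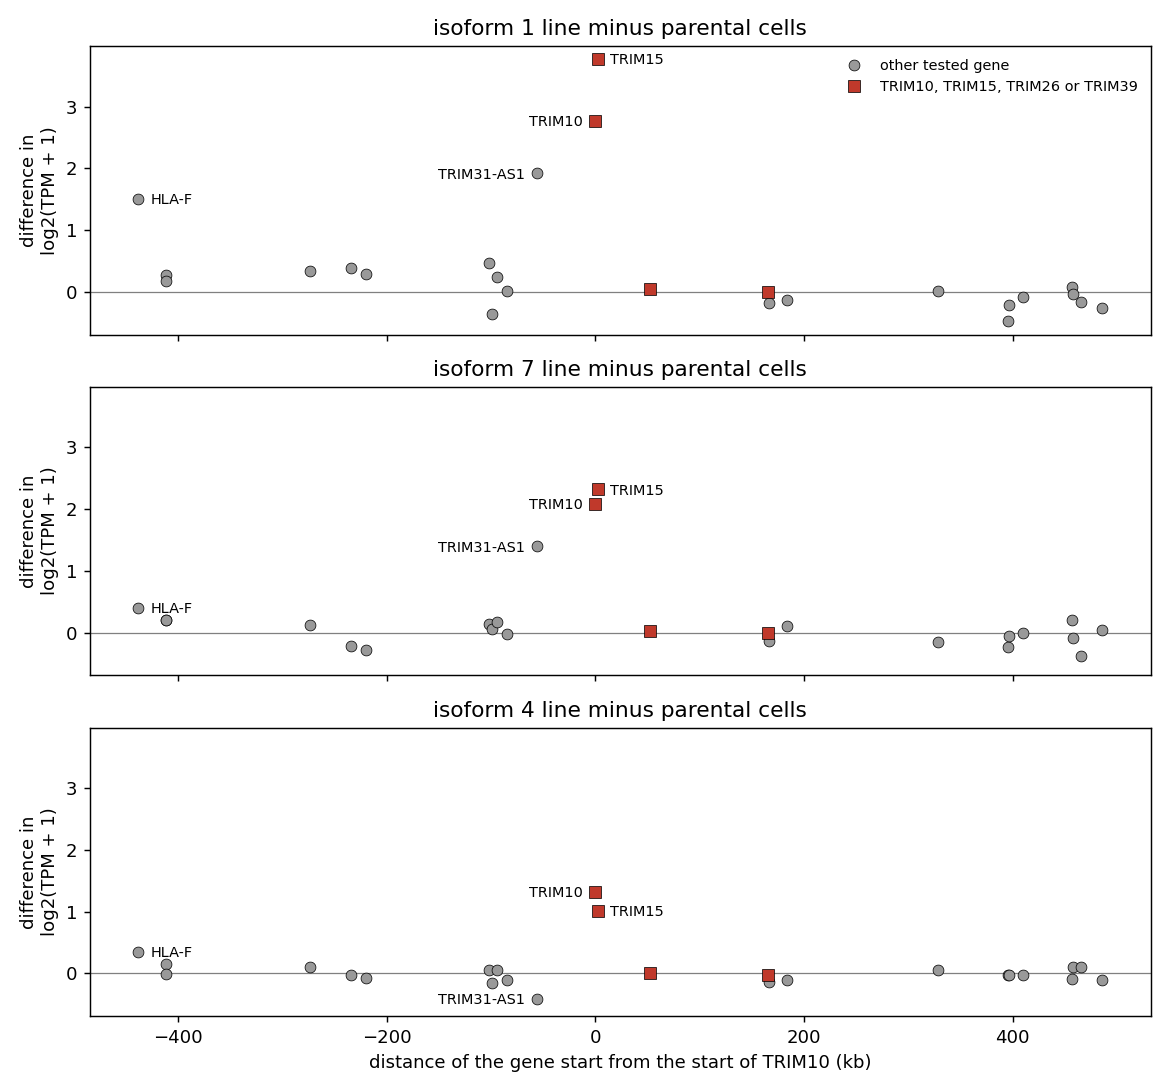
Difference in log2(TPM + 1) from parental cells in the isoform 1, 7 and 4 lines for the 25 genes tested within 500 kb of TRIM10, against the distance of each gene start from that of TRIM10 in kb. TRIM10 and TRIM15 stand highest in each panel, TRIM31-AS1 follows in isoforms 1 and 7, and TRIM26 and TRIM39 (the other red squares) lie near 0.

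Of 59 other TRIM genes, 39 were tested. In isoforms 1, 2 and 7, 1 was called higher and 0 lower, and in the other 9 lines 0 were called, beside the 4.52%, 3.73% and 2.08% of all genes called in isoforms 1, 2 and 7. That gene was TRIM6, called in 3 lines. From 10.4 TPM ± 1.3 (SD, n = 3) in parental cells, TRIM6 reached 43.3 TPM ± 1.5 (n = 3) with isoform 1, a log2 difference of 1.96 ± 0.1 (SE; limma adjusted p = 1.64e-16). The median over the 39 was -0.13 in isoform 1, against -0.11 over all genes. Of 9 interferon-inducible TRIM genes outside the cluster, 6 were tested and 0 were called in any line. Their median was -0.26 in isoforms 1 and 7, against -0.11 and -0.06 over all genes. It was -0.23 in isoform 2, against -0.09. By the adjusted p alone, 4 of 6 were lower and 1 higher in isoform 1 and 5 of 6 lower in isoform 7, where 58.5% and 39.6% of all genes passed in either direction. In isoforms 3, 6, 10 and 12 the median was between 0.01 and 0.03, and in isoforms 4, 5, 8, 9 and 11 between -0.16 and -0.03.

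The genes whose levels followed TRIM10 most closely over the 13 group means were ranked by Pearson's r of log2(TPM + 1). TRIM10 was selected on its levels, and the top of all tested genes over 13 points was taken. The ranking is therefore a description, and shared regulation was not tested. Outside the 7 genes they were MRPS36 (r = 0.97), CD58 (0.965), SEMA3B (0.959), LOC105373583 (0.956) and SULT2B1 (0.949). TRIM15, at 0.955, had rank 5 among all tested genes. CD58, the adhesion ligand of CD2 on T cells, went from 6.35 TPM ± 0.25 (SD, n = 3) in parental cells to 50.7 TPM ± 1.6 in isoform 1 and was at 9.36 TPM ± 0.21 in isoform 6. SEMA3B, a secreted semaphorin, had 4.69 TPM ± 0.15, 64.8 TPM ± 4.8 and 8.76 TPM ± 0.97 in the same groups. SULT2B1, a sulfotransferase for sterols, had 5.53 TPM ± 0.62, 62.9 TPM ± 3.6 and 10.3 TPM ± 0.075. MRPS36 varied over a far narrower range, from 53.7 TPM ± 0.91 to 70.4 TPM ± 1.1. LOC105373583 had 0.273 TPM ± 0.041 in parental cells, 2.17 TPM ± 0.13 in isoform 1 and 0.38 TPM ± 0.1 in isoform 6. These levels are low, and that gene passed the filter only through lines where it was high. By Spearman's rho the values were 0.97 for TRIM15 and LOC105373583, 0.9 for MRPS36, 0.89 for SULT2B1, 0.86 for SEMA3B and 0.77 for CD58.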

How the data were processed

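The members and all gene lists were chosen with earlier results of these data known. TRIM10 was selected on its difference from parental cells. It was part of the fit, but its p-values are not given, and its calls are a description and no support. Per the submitters' processing notes, Trimmomatic 0.36, FastQC 0.11.5, kallisto 0.44.0, DESeq2 1.22.2 and the build GRCh38.p12 were used. The authors deposited 13 tables, 1 per group, with TPM per library, and per the file headers each line's table also holds a log2 fold change, a test statistic (a score) and a p-value against parental cells. The authors' mean normalised counts summed to 50609338 to 56136330 per table.

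TPM is not counts, so limma 3.58.1 (R 4.3.3) was fitted to log2(TPM + 1) for 15003 genes (mean TPM of 1 or more), in 1 fit of 39 libraries with 26 residual degrees of freedom. Adjusted p-values (Benjamini-Hochberg) run over all genes of a comparison, 12 against parental cells and 7 between lines. The 12 HNF4A rows were summed. The 6 libraries of isoforms 4 and 5 carry no replicate number in the labels. Genes named besides the 7 are the 5 most like TRIM10, list genes called in at least 3 lines, and HNF4A. TRIM31-AS1, which overlaps TRIM31, was chosen after its values were seen. Alternatives were 2 smaller pseudocounts, no filter, a 5 TPM filter, median-of-ratios scaling, separate fits, a replicate block and leaving out each of 39 libraries.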

Additional observations from a re-analysis of the deposited data

Results flagged for a closer look

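For 2 genes the response differed between lines by the test of the difference itself. TRIM15 was lower in isoform 4 than in isoform 1 (log2 difference -2.75), in isoform 5 than in isoform 2 (-2.75), in isoform 6 than in isoform 3 (-1.96) and in isoform 3 than in isoform 1 (-1.21, and -0.94 without replicate 1 of isoform 3). TRIM38 was higher in isoform 4 than in isoform 1 (2.1) and in isoform 5 than in isoform 2 (1.07, and 0.998 with median-of-ratios scaling, which ends the call). Each isoform is 1 line, so the isoform and the line cannot be told apart.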

How the results depend on the processing

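TRIM15 was called higher in 9 to 12 lines under the settings with all 12 lines. TRIM10 was chosen on this count. TRIM38 was called lower in 9 lines and higher in 2 with no minimum fold change, and lower in 7 with a pseudocount of 0.1 or 0.01 TPM. The share of all genes called with these pseudocounts is not given. Leaving out 1 library gave 3 to 4 lines lower and 0 to 1 higher (0 without parental replicate 3). TRIM39 was called lower in 1 line with no minimum fold change. With median-of-ratios scaling 2 lines were lower: TRIM38 missed the call in isoform 1 (-0.995) and for isoform 5 against isoform 2 (0.998). That scaling moved the median of all genes in isoform 1 from -0.107 to 0.015 and the genes called higher and lower from 411 and 267 to 521 and 164. With a replicate block, which left out isoforms 4 and 5, TRIM15 was called in 9 of 10 lines and TRIM38 lower in 3, as without it. Deviations from group means were correlated between parental and line libraries with the same number. Over 30 pairs the correlation ran from -0.047 to 0.187 and was over 0.1 in 4. Pairs with different numbers were not compared. With a filter of 5 TPM TRIM38 is not tested. The authors' mean normalised counts, 1 value per comparison with parental cells, were 7.0 to 39.6 for TRIM31 and 0.156 to 52.3 for TRIM40. These counts are low and the depth of each library is unknown, which limits what can be said of the 2 genes.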

Other observations

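TRIM10 was first described in red blood cell precursors, and 18 erythroid genes were therefore looked up. Of these, 4 passed the 1 TPM filter, and HBE1, which encodes the embryonic epsilon globin, was called lower in 8 lines and higher in 3. The other tested genes of this list were called in no line. Of all genes tested, between 0.247% (isoform 6) and 4.52% (isoform 1) were called in a line. HBE1 was at 7.68 TPM ± 2.1 (SD, n = 3) in parental cells and 0.271 TPM ± 0.015 in isoform 9, a log2 difference of -2.74 ± 0.18 (SE; limma adjusted p = 1.76e-12). In isoform 4 it was at 43.8 TPM ± 1.24 and in isoform 5 at 26.7 TPM ± 0.535, log2 differences of 2.4 (limma adjusted p = 4.66e-11) and 1.7 (limma adjusted p = 9.55e-08). Isoform 12, at 16.4 TPM ± 1.93, was the third line with a higher level. Isoform 6, the other line with exon 1B, was lower, at 2.14 TPM ± 0.283.

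Of 20 reported partners and substrates of the 7 proteins, 18 were tested. CDKN1A, the cell cycle inhibitor p21 whose stability is tied to TRIM39, was called higher in 3 lines. It rose from 104.0 TPM ± 3.3 (SD, n = 3) in parental cells to 342.0 TPM ± 19.0 in isoform 1, a log2 difference of 1.71 ± 0.09 (SE; limma adjusted p = 1.38e-16). No other gene of that list was called in any line. CDKN1A was called in isoforms 1, 2 and 10, where 4.52%, 3.73% and 1.44% of all genes tested were called.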
